A study of Mus musculus with 12 samples.

Results

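The genes described here make and load the peptides that MHC class I molecules show on the cell surface. They were chosen by name: every non-control spot of the arrays whose gene name was B2m, H2-K1, H2-D1, Tap1, Tap2, Tapbp, Psmb8, Psmb9, Psmb10 or Psme1 was taken, which gave 17 probes for 10 genes, of 41174 probes on the array. All 10 genes were measured above background and entered the tests, among 19339 genes tested in all. The livers came from adrenalectomized C57BL/6 mice aged 11 weeks, in 4 groups of 3 animals with 1 array per animal: males given vehicle, males given dexamethasone, females given vehicle and females given dexamethasone. The vehicle was phosphate buffered saline, dexamethasone (a synthetic glucocorticoid) was injected intraperitoneally at 1 mg/kg, the liver was taken 6 h later, and the females were in the stage called diestrous 1. All 4 groups lacked adrenal glands, where corticosterone is made, so the vehicle groups show livers with little of that hormone, not those of intact mice. Levels are log2 of the scanner's processed signal relative to the array's 75th percentile, and a level can be compared between arrays for 1 probe but not between probes.

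MHC class I molecules sit on nearly all nucleated cells and display short peptides from proteins made inside the cell to cytotoxic T cells. The peptides are cut by the proteasome, pumped into the endoplasmic reticulum by the TAP transporter and fitted into a heavy chain paired with beta-2 microglobulin. Interferons make cells replace the catalytic subunits of the standard proteasome by those of the immunoproteasome, and glucocorticoids are known to dampen interferon signalling. Hepatocytes carry class I at a modest level, while leukocytes and the sinusoidal cells of the liver carry more.

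Before scaling, the 75th percentile of the signal lay between 578 and 1251 over the 12 arrays, and 65.7 to 72.2% of the non-control spots carried the software's flag for signal well above background. No spot of a member was saturated. The tissue was checked against 8 hepatocyte markers, all tested, whose summed level (relative to the 75th percentile, on a linear scale) was 1767 to 1858 in male vehicle, 2211 to 2562 in male dexamethasone, 1646 to 1907 in female vehicle and 2002 to 2111 in female dexamethasone livers; 5 of them rose in males and 3 in females. Of all genes tested, 10.4% rose in males and 6.79% in females. The arrays lay on 3 slides, each holding vehicle and dexamethasone arrays of at least 1 sex. The 3 male vehicle arrays each took position 1 of a slide, so position and treatment cannot be told apart in males. The female vehicle arrays took positions 2, 3 and 4, so position and sex cannot be told apart under vehicle. The male part of the difference in response between the sexes has the same limit.

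After dexamethasone the inducible catalytic subunits of the proteasome and the transporter subunit Tap1 were lower in both sexes, while no change was called in the heavy chains H2-K1 and H2-D1 or in beta-2 microglobulin. In males 4 of the 10 members fell (Tap1, Psmb8, Psmb9 and Psmb10) and none rose by limma at an adjusted p under 0.05, against 12.1% of all genes tested that fell and 10.4% that rose. In females 5 of 10 fell (the same 4 and Tap2) and none rose, against 6.88% and 6.79% of all genes. At an unadjusted p under 0.05, 5 members in each sex passed, all of them lower, where 35.4% of all genes in males and 28.3% in females passed in either direction. The 4 genes that fell in both sexes compare with 5.57% of all genes that did so. The median log2 fold change of the members was −0.28 in males and −0.39 in females, beside medians of 0.01 and 0.02 over all genes. The counts describe the members and are not a test of the set. With another background correction (normexp), Psmb9 alone was called in males and Psmb9 and Psmb10 in females, while 935 and 561 genes were called in all.

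**Figure D1:**
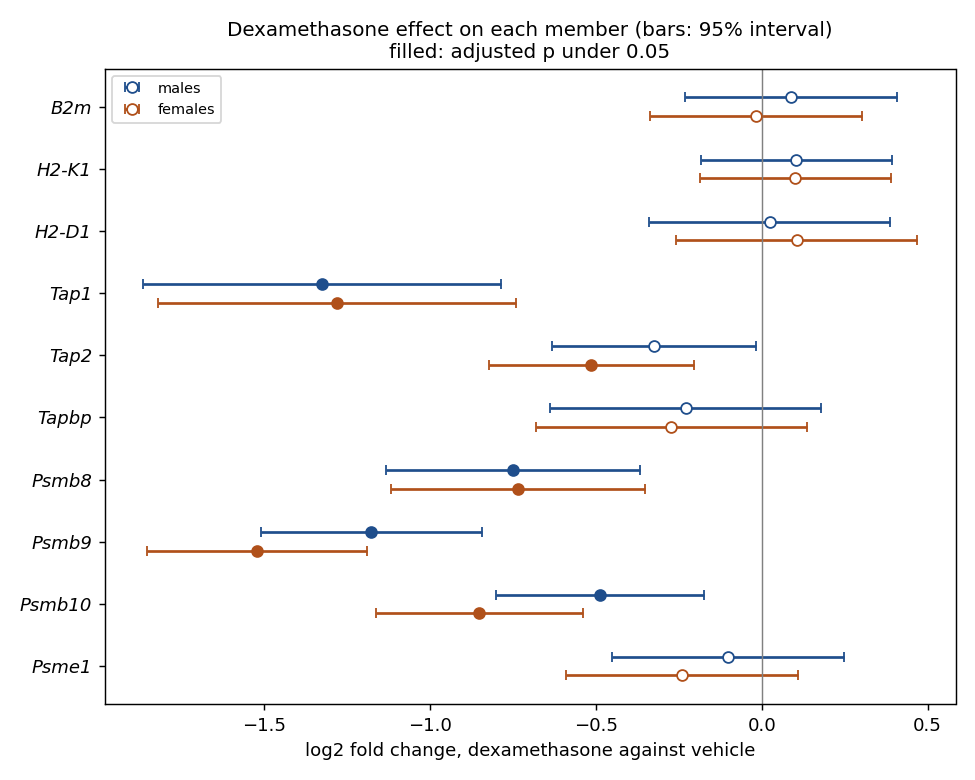
Log2 fold change of each member under dexamethasone against vehicle (x axis) in males (blue) and females (orange), with 95% intervals from limma; filled points have an adjusted p under 0.05. Tap1, Psmb8, Psmb9 and Psmb10 lie below 0 in both sexes, Tap2 is filled in females, and B2m, H2-K1 and H2-D1 lie between −0.02 and 0.11.

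Psmb8, Psmb9 and Psmb10 all fell in both sexes. They encode the inducible catalytic subunits beta5i (Psmb8), beta1i (Psmb9) and beta2i (Psmb10), which take the places of beta5, beta1 and beta2. The probes that measured Psmb8 and Psmb9 are printed because the results turn on them. The Psmb9 probe lies on the minus strand at chr17:32262147-32262206 of mm7, the build of the array design. The first Psmb8 probe, the brighter of the pair, covers chr17:32280725-32281049 on the plus strand, an interval of 325 bases for a probe of 60, and the second covers chr17:32280668-32280727.
Psmb9 probe: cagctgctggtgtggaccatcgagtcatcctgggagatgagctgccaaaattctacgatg
Psmb8 probe, brighter: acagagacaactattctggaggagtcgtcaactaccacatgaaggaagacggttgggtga
Psmb8 probe, dimmer: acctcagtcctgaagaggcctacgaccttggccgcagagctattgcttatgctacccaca

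The level of Psmb9 in male livers was 3.5, 3.10 and 2.98 after vehicle and 1.91, 2.18 and 1.96 after dexamethasone. In female livers it was 3.71, 3.6 and 3.76 after vehicle and 2.27, 2.12 and 2.11 after dexamethasone. Every dexamethasone array was below every vehicle array of its sex, with a gap wider than the range within any group. By each gene's brightest probe, vehicle and dexamethasone arrays did not overlap for 4 members in males and 5 in females, the called ones. Of all genes, 21.5% and 15.4% were lower without overlap. Psmb9 fell by 1.18 ± 0.15 on the log2 scale in males (SE; limma adjusted p = 0.00071), a change of −55.8%. In females it fell by 1.52 ± 0.15 (adjusted p = 0.000328), a change of −65.2%. After vehicle, the lowest female array (3.6) was above the highest male array (3.5), and after dexamethasone the sexes overlapped.

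Psmb8 levels in males were 3.51, 3.37 and 3.13 after vehicle and 2.53, 2.88 and 2.35 after dexamethasone. In females they were 4.25, 4.01 and 3.84 after vehicle and 3.16, 3.30 and 3.43 after dexamethasone. The groups did not overlap in either sex, and the female dexamethasone arrays stood in the range of the male vehicle arrays. Psmb8 fell by 0.75 ± 0.17 in males (adjusted p = 0.0116, −40.6%) and by 0.73 ± 0.17 in females (adjusted p = 0.0196, −39.9%). The dimmer probe, tested over all probes, gave −0.79 ± 0.20 in males (adjusted p = 0.0187) and −0.76 ± 0.20 in females (adjusted p = 0.0336), so both probes of the gene moved alike. Leaving out male vehicle 1 took the male call from Psmb8 (adjusted p = 0.0554), and leaving out female vehicle 1, female dexamethasone 1 or female dexamethasone 2 took the female call (adjusted p = 0.0734, 0.0676 and 0.0534), as did a fit to the female arrays alone (0.0539).

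Psmb10, on chromosome 8 and so outside the MHC, was measured by 1 probe at chr8:104534632-104534691 of mm7, on the minus strand. Its level in males was 5.15, 5.03 and 4.82 after vehicle and 4.43, 4.78 and 4.34 after dexamethasone. In females it was 5.59, 5.54 and 5.54 after vehicle and 4.63, 4.67 and 4.81 after dexamethasone. The female groups stood well apart, while in males the lowest vehicle array (4.82) was close to the highest dexamethasone array (4.78). Psmb10 fell by 0.49 ± 0.14 in males (adjusted p = 0.032) and by 0.85 ± 0.14 in females (adjusted p = 0.00447). The male call was lost without male vehicle 1, male vehicle 2, male dexamethasone 1 or male dexamethasone 3 (adjusted p = 0.126, 0.0863, 0.0906 and 0.109) and with slide as a block (adjusted p = 0.0697), no filter on dim probes (0.0508), the male arrays alone (0.0821) or normexp (0.11).

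**Figure D2:**
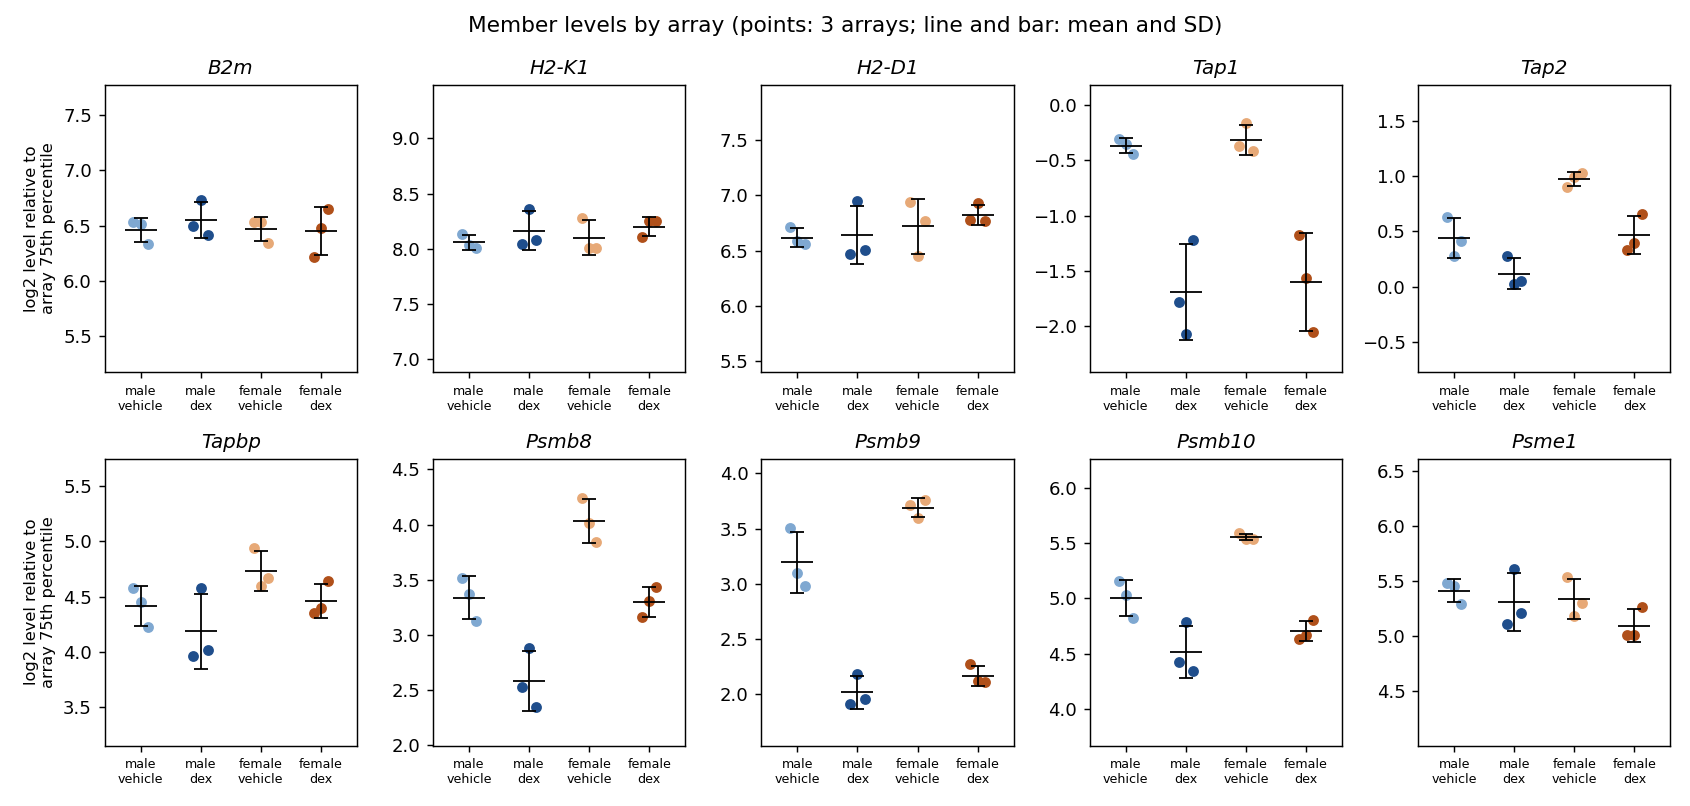
Log2 level of each member relative to the array's 75th percentile (y axis, the same span in each panel) by group (x axis); points are the 3 arrays of a group, and the line and bar are their mean and SD. Psmb9 and Tap1 separate vehicle from dexamethasone in both sexes, and the 4 groups of H2-K1 lie between 8.0 and 8.36.

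Psme1 encodes the alpha subunit of the PA28 activator, a ring that caps the proteasome and speeds peptide release. Its level was 5.49, 5.45 and 5.29 in male vehicle, 5.11, 5.61 and 5.21 in male dexamethasone, 5.53, 5.18 and 5.30 in female vehicle and 5.01, 5.01 and 5.27 in female dexamethasone livers. The groups overlapped in both sexes. The change was −0.10 in males (95% interval −0.45 to 0.25) and −0.24 in females (−0.59 to 0.11), and neither passed the test. Psme3, which encodes another proteasome activator (PA28 gamma, found in the nucleus) and was picked after its values were known, rose by 0.81 ± 0.24 in males (adjusted p = 0.0373), and its change in females was 0.55 ± 0.24 (adjusted p = 0.169). Psme2, the partner subunit of Psme1, was not analysed here. A probe named for its near-identical copy Psme2b, looked at after its values were known, gave −0.21 ± 0.12 in males (adjusted p = 0.24) and −0.35 ± 0.12 in females (adjusted p = 0.0755), and it may also read Psme2.

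No gene of the standard proteasome was called lower. Of 25 constitutive proteasome genes, all tested, 2 rose and none fell in males, and 1 rose and none fell in females, with medians of 0.17 and 0.06. Over all genes, 10.4% rose and 12.1% fell in males, and 6.79% rose and 6.88% fell in females. Psmd4, a ubiquitin receptor of the regulatory particle, rose in both sexes (0.31 ± 0.10, adjusted p = 0.0487, and 0.35 ± 0.10, adjusted p = 0.0408). The subunits that the immunoproteasome replaces changed by 0.29 ± 0.11 (Psmb5), 0.17 ± 0.18 (Psmb6) and 0.01 ± 0.13 (Psmb7) in males and by 0.10 ± 0.11, −0.03 ± 0.18 and 0.05 ± 0.13 in females, and none passed the test. The log2 difference between Psmb8 and Psmb5 within an array changed by −1.04 in males and −0.84 in females. That between Psmb9 and Psmb6 changed by −1.35 and −1.49, and that between Psmb10 and Psmb7 by −0.49 and −0.90. The 3 vehicle and 3 dexamethasone arrays of a sex did not overlap in any of these differences, nor did they for Psmb8, Psmb9 and Psmb10 alone. The share of other gene pairs without overlap was not computed. These differences are given as a description and were not tested; an exact permutation test of 3 arrays against 3 gives no p below 0.1 (two-sided).

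**Figure D3:**
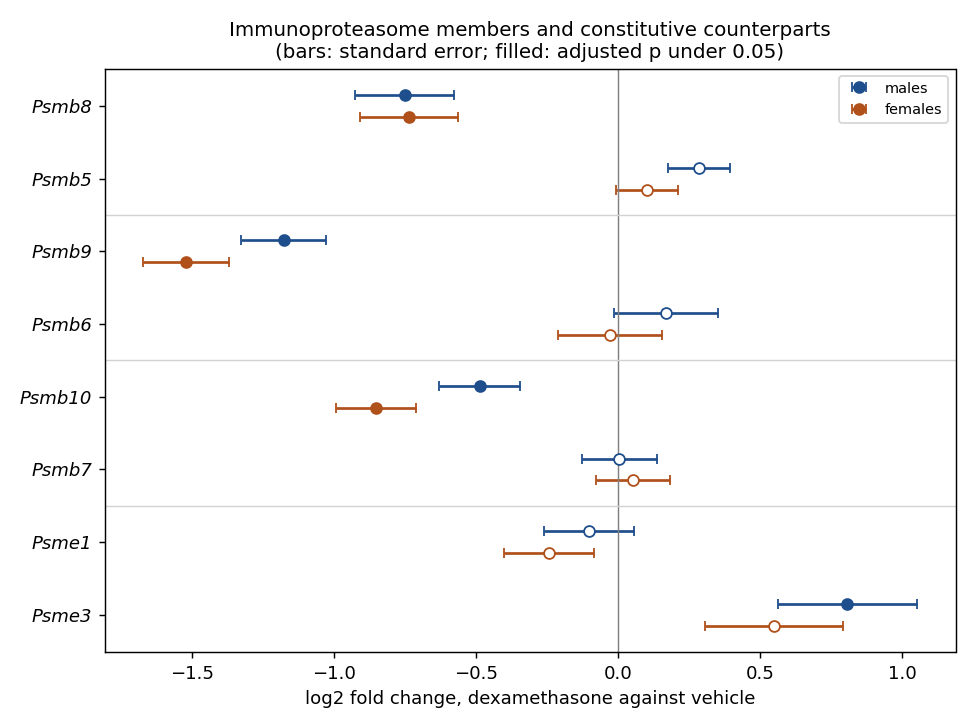
Log2 fold change under dexamethasone against vehicle (x axis, bars are the standard error) for each immunoproteasome member above the constitutive gene it is set against, and for Psme1 above Psme3, in males (blue) and females (orange); filled points have an adjusted p under 0.05. Psmb8, Psmb9 and Psmb10 lie below 0 in both sexes, while Psmb5, Psmb6 and Psmb7 lie between −0.03 and 0.29.

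Tap1 and Tap2 form the transporter that carries peptides into the endoplasmic reticulum. The Tap1 probe lies at chr17:32273751-32273810 of mm7 on the plus strand.
Tap1 probe: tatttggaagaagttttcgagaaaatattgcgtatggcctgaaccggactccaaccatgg

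Tap1 levels in males were −0.30, −0.35 and −0.44 after vehicle and −1.78, −2.07 and −1.22 after dexamethasone. In females they were −0.37, −0.16 and −0.41 after vehicle and −1.17, −1.57 and −2.05 after dexamethasone. The vehicle arrays of both sexes lay close together, and the dexamethasone arrays were lower and more spread out, though each was well above background. Tap1 fell by 1.32 ± 0.24 in males (adjusted p = 0.00399, −60.1%) and by 1.28 ± 0.24 in females (adjusted p = 0.008, −58.9%). With normexp background correction the change was −0.86 in males (adjusted p = 0.0596) and −0.76 in females (adjusted p = 0.114).

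Tap2 levels in males were 0.63, 0.27 and 0.41 after vehicle and 0.28, 0.02 and 0.05 after dexamethasone. In females they were 0.91, 0.99 and 1.03 after vehicle and 0.33, 0.40 and 0.66 after dexamethasone. The female groups did not overlap, and the male groups met at 0.27 and 0.28. Tap2 fell by 0.51 ± 0.14 in females (adjusted p = 0.0351), a call that did not survive leaving out any 1 female array but dexamethasone 3, nor leaving out male vehicle 3 (adjusted p = 0.0529 to 0.111), nor slide as a block (0.0904), no filter on dim probes (0.0504), the female arrays alone (0.103) or normexp (0.0699). In males the change was −0.32 ± 0.14 (adjusted p = 0.122), and the difference between the sexes was −0.19 (95% interval −0.62 to 0.25). The log2 difference between Tap1 and Tap2 within an array changed by −1.0 in males and −0.77 in females, without a test.

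Tapbp encodes tapasin, which bridges TAP and the heavy chain and edits the bound peptide. Its levels ran from 3.96 to 4.94 over the 12 arrays, and the groups overlapped in both sexes. The change was −0.23 ± 0.18 in males (adjusted p = 0.422) and −0.27 ± 0.18 in females (adjusted p = 0.379), and the second probe gave −0.13 and −0.24. Tapbpl, a tapasin-related editor that works outside the loading complex, fell by 0.89 ± 0.16 in males (adjusted p = 0.00392) and by 1.01 ± 0.16 in females (adjusted p = 0.00376). Among the 13 tested genes for peptide supply and loading, 3 rose and 1 fell in males, and none rose and 1 fell in females, with medians of 0.13 and −0.01. The shares of all genes that rose and fell were 10.4% and 12.1% in males and 6.79% and 6.88% in females.

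The heavy chains H2-K1 and H2-D1 present the peptides, and B2m is the light chain that each of them needs to reach the surface. H2-K1 had 3 probes, and the pair printed here lies at chr17:32077868-32078115 (an interval of 248 bases) and chr17:32077678-32077737 of mm7, on the minus strand; they are shown because they moved unlike the brightest probe.
H2-K1 probe, second brightest: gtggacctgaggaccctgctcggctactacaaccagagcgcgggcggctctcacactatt
H2-K1 probe, dimmest: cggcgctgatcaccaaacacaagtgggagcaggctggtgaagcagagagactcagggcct

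By its brightest probe, H2-K1 was at 8.13, 8.04 and 8.0 in male vehicle, 8.04, 8.36 and 8.08 in male dexamethasone, 8.28, 8.01 and 8.01 in female vehicle and 8.11, 8.25 and 8.25 in female dexamethasone livers. By that probe the 4 groups overlapped throughout. That probe was spotted 10 times per array, and its spots had an SD of 0.03 to 0.09 within an array, beside an SD of 0.07 to 0.18 between the arrays of a group. The change was 0.10 in males (95% interval −0.18 to 0.39) and 0.10 in females (−0.19 to 0.39). The probes printed above gave −0.34 ± 0.15 (adjusted p = 0.138) and −0.18 ± 0.11 (adjusted p = 0.272) in males and −0.17 and −0.05 in females, so the sign differed between probes named for 1 gene and no probe passed the test. The array design lists no RefSeq accession for any H2-K1 probe, and these probes may also read other heavy chains.

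H2-D1 levels ran from 6.45 to 6.95, with a change of 0.02 ± 0.16 in males and 0.11 ± 0.16 in females. The array design lists 3 RefSeq accessions for this probe, and those that matched a gene symbol gave H2-D1 alone. Class I heavy chains are near copies of each other, so the probe may still read more than 1 of them. The second H2-D1 probe lies elsewhere, at chr17:34358688-34358747 of mm7 on the minus strand, while the first lies at chr17:33361850-33362082 on the plus strand. The RefSeq accessions listed for the second probe matched no gene symbol, so it may not read H2-D1. It was well above background on only 8 of 12 arrays, with changes of −0.18 ± 0.52 and 0.38 ± 0.52. B2m levels ran from 6.22 to 6.73, with a change of 0.09 ± 0.14 in males and −0.02 ± 0.14 in females. Its other probes, one of them spotted 10 times, gave changes of 0.07 and −0.09 in males and 0.06 and 0.19 in females. None of these 3 genes has a settled direction: under quantile normalization the male changes of B2m, H2-K1 and H2-D1 were −0.16, −0.16 and −0.20, none of them called.

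**Figure D4:**
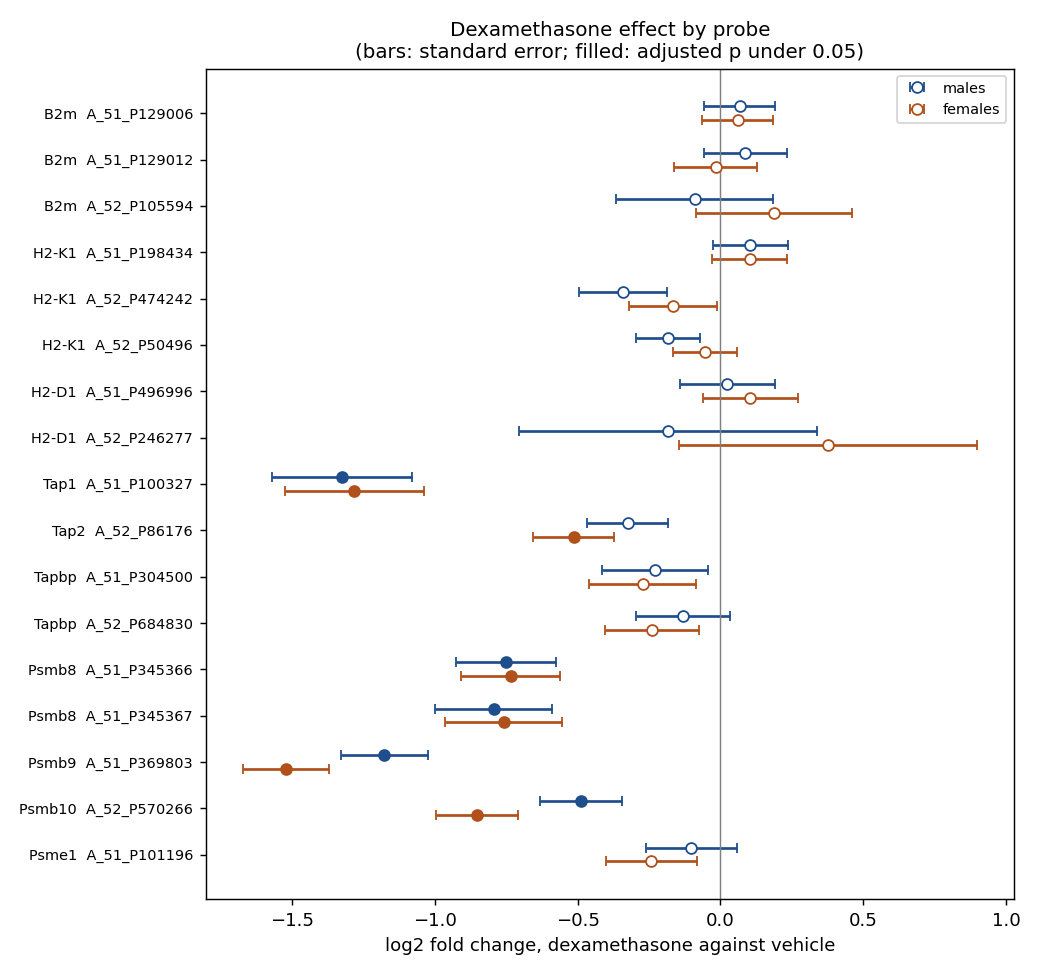
Log2 fold change under dexamethasone against vehicle (x axis, bars are the standard error) for each of the 17 probes of the members, in males (blue) and females (orange); filled points have an adjusted p under 0.05 over all probes. Both Psmb8 probes lie between −0.79 and −0.73, and the 3 H2-K1 probes lie between −0.34 and 0.10 with none filled.

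Other class I chains were mostly not called. Of 20 listed, 14 were tested. None rose and 2 fell in each sex, with medians of −0.28 in males and −0.12 in females. Over all genes, 12.1% fell in males and 6.88% in females. H2-T22 fell by 0.48 ± 0.15 in males (adjusted p = 0.0444) and by 0.51 ± 0.15 in females (adjusted p = 0.047). H2-T10, its close relative, fell by 0.46 ± 0.15 (adjusted p = 0.0482) and by 0.50 ± 0.15 (adjusted p = 0.0484), and their probes may share transcripts. The change of H2-T23, which encodes the Qa-1 molecule, was −0.04 in males and −0.03 in females. H2-Q1, H2-Q2, H2-Q7 and H2-Q10 changed by −0.06 to 0.08 in males and by −0.03 to 0.03 in females. H2-Q8 changed by −0.23 and −0.30, and H2-T24 by −0.42 and −0.44. None of these passed the test.

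Promoters of B2m, H2-K1 and H2-D1, with no called change, and of Psmb9 and Tap1, which fell, are printed as examples. All of these genes are known targets of interferon. Those of Tapbp and Psme1 (not called) and of Psmb8 and Psmb10 (which fell) are not printed. They are the bases before the start site given by RefSeq on GRCm38.p6, which had an entry for 9 members and none matched for Tap2. They cover chr2:122147437-122147686 (plus strand) for B2m, chr17:34000348-34000597 (minus) for H2-K1 and chr17:35262844-35263093 (plus) for H2-D1, 250 bases each, and for Psmb9 and Tap1, which start 225 bases apart and run in opposite directions, the bases between the starts, chr17:34187331-34187555, on the strand of Tap1. Capitals mark matches, on either strand, to GGGATTCCC (an NF-kB site), AAANNGAAA or GAANNGAAA (spellings of the interferon-stimulated response element, with no base in 2 matches here), TGACG (the core of a cyclic AMP response element) and CCAAT.
B2m: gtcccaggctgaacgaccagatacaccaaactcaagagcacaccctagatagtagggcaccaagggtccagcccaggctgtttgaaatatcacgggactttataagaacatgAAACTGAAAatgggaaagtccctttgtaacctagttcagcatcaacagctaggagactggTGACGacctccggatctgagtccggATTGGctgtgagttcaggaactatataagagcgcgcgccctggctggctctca
H2-K1: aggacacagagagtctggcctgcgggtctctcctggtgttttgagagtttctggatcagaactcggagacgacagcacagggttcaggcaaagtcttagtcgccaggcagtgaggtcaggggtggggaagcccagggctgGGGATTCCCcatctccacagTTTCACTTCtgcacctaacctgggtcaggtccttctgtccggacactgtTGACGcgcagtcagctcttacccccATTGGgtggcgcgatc
H2-D1: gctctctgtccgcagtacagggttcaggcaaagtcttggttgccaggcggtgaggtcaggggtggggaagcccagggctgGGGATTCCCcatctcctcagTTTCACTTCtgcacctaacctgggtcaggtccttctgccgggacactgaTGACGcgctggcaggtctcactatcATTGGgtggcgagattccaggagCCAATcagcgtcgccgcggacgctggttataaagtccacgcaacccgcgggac
Psmb9 and Tap1: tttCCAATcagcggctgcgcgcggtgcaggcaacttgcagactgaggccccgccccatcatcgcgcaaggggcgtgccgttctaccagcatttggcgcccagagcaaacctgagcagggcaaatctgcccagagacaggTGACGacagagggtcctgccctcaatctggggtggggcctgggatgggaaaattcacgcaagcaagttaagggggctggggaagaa

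H2-K1 and H2-D1 share a run of 47 identical bases that includes GGGATTCCC. Those letters occur in 99 of 32851 promoters of the same length (0.3%) and in no other member. GAANNGAAA, a spelling taken from class I promoters themselves, was found in H2-K1 and H2-D1 and in 6.31% of all promoters. AAANNGAAA was found in B2m alone among the members and in 9.37% of all promoters. Tapbp and Psme1, also not called, held none of these spellings, nor did Tap1, Psmb8, Psmb9 and Psmb10, which fell. A link between letters and calls was not tested. TGACG was found in 5 of the 9 members (17.77% of all) and CCAAT in 6 of 9 (33.85% of all). In both counts Tap1 and Psmb9 are counted for the same bases, read from opposite strands. The gamma-activated site TTCNNNGAA was found in Psmb8 alone (7.02% of all), and the glucocorticoid receptor core ACANNNTGT in no member (5.84% of all). The spellings were settled after matches in these promoters had been seen, and the NF-kB and AAANNGAAA letters were shortened by a base from spellings tried first, which fewer promoters held, so the shares are descriptions. These are matches of letters in a short window, not sites.

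The members also differ in position. By the RefSeq order of protein-coding genes on chromosome 17, Psmb9, Tap1, Psmb8 and Tap2 are consecutive, with the class II genes H2-DMb2 and H2-DMb1 on the side of Psmb9 and H2-Ob and H2-Ab1 on the side of Tap2. Of the 10 members 7 are on chromosome 17, and the 3 of those outside this run (H2-K1, H2-D1 and Tapbp) were not called. Within the run, Tap2 was called in females only. On other chromosomes, Psmb10 was called in both sexes, while B2m and Psme1 were not called. The part of position in these changes was not tested. H2-DMb1 fell by 1.72 ± 0.25 in males (adjusted p = 0.00133) and by 1.31 ± 0.25 in females (adjusted p = 0.00819). H2-DMb2 fell by 1.96 ± 0.25 (adjusted p = 0.00073) and by 1.3 ± 0.25 (adjusted p = 0.00854). H2-Ab1 fell by 1.09 ± 0.29 in males (adjusted p = 0.0202) and changed by −0.74 ± 0.29 in females (adjusted p = 0.115), and H2-Ob changed by −1.06 and −1.47 without passing the test in either sex. The neighbours were taken by position, after results of these data were known.

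Regulators of class I genes included several that fell. Of 17 tested regulators, 1 rose and 5 fell in males, and none rose and 5 fell in females, with medians of −0.37 and −0.52. The shares of all genes that rose and fell were 10.4% and 12.1% in males and 6.79% and 6.88% in females. Relb, an NF-kB subunit of the non-canonical pathway, fell by 1.86 ± 0.24 in males (adjusted p = 0.00071) and by 1.38 ± 0.24 in females (adjusted p = 0.00528). Irf7 fell by 1.35 ± 0.21 (adjusted p = 0.0017) and by 0.81 ± 0.21 (adjusted p = 0.0291). Irf9, the DNA-binding part of the interferon-activated ISGF3 complex, fell by 1.06 ± 0.33 and by 1.19 ± 0.33 (adjusted p = 0.0404 and 0.037).

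Irf1, an interferon-induced activator of Tap1 and Psmb9, fell by 1.97 ± 0.40 in males (adjusted p = 0.00633) and changed by −1.01 ± 0.40 in females (adjusted p = 0.123). A call in 1 sex alone does not show that the sexes differ, and no regulator had a called difference between its effects in females and males. Nlrc5, the class I transactivator, was not analysed here. Upstream, 3 of 8 tested interferon, receptor and kinase genes fell in each sex and none rose, where 12.1% of all genes fell in males and 6.88% in females. Tyk2 and Jak2, kinases of the interferon receptors, fell in both (Tyk2 by 0.88 and 1.00, Jak2 by 0.88 and 0.54).

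Several markers of leukocytes, which carry much class I and immunoproteasome, also fell. Beside the marker counts, 12.1% of all genes fell and 10.4% rose in males, and 6.88% fell and 6.79% rose in females. Each sum of markers weighs the brightest probes of its list most, so it is not a total for a cell type. Of 10 pan-leukocyte markers 8 fell in males and 4 in females, and their summed level (linear, relative to the 75th percentile) was 12.4 to 15.7 in male vehicle, 6.94 to 8.37 in male dexamethasone, 16 to 21 in female vehicle and 10.3 to 12 in female dexamethasone livers. Of 5 tested B cell markers (7 listed) 3 fell in each sex, with sums after vehicle and after dexamethasone of 0.80 to 1.27 and 0.23 to 0.38 in males and of 0.80 to 1.96 and 0.30 to 0.64 in females; Blk was not above background on any array. Of 12 T and NK cell markers 4 fell in males, and 1 rose in females, with sums of 2.39 to 3.63 and 1.79 to 2.70 in males and of 3.10 to 6.60 and 3.56 to 3.74 in females. Of 10 Kupffer cell and macrophage markers 1 fell in males and none in females, with sums of 60 to 98.4 and 41.8 to 55.8 in males and of 92.7 to 144.3 and 62.7 to 123.5 in females.

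Ptprc, the CD45 antigen of all leukocytes, fell by 1.29 in males (adjusted p = 0.00057) and by 0.77 in females (adjusted p = 0.0107). Of 8 endothelial markers, which include those of sinusoidal cells, 3 fell and 1 rose in males and 2 fell and 1 rose in females, with sums after vehicle and after dexamethasone of 24 to 32.4 and 20.9 to 25.4 in males and of 28.2 to 51.8 and 25 to 44.3 in females. Fcgr2b, an inhibitory Fc receptor, fell by 1.43 and 0.97 and Clec4g, a lectin of sinusoidal endothelium, by 1.09 and 0.79, while Lyve1, a hyaluronan receptor, rose by 1.89 and 1.94. Of 6 stellate cell markers 2 fell in males and none in females, with sums of 29.5 to 36.5 and 29.2 to 32.1 in males and of 37.2 to 40.3 and 44.1 to 48.8 in females. These sums are mostly the level of Dcn, the brightest of the 6. In females the mean of Dcn was 4.93 after vehicle and 5.27 after dexamethasone, while the median change of the list was −0.08. Of 5 tested neutrophil markers (6 listed) 1 fell in males and none in females, with sums of 1.5 to 3.61 and 0.40 to 4.00 in males and of 2.37 to 2.88 and 0.74 to 2.75 in females. The part of these cell types in the fall of the members was not tested, and in whole liver fewer cells of a type and less RNA per cell cannot be told apart.

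No difference in response between the sexes was called for a member. The female effect minus the male effect passed the limma test for none of the 10 (adjusted p = 1.00 for each), and none had an unadjusted p under 0.05, where 0.00517% of all genes were called and 5.34% had an unadjusted p under 0.05. The estimates ran from −0.36 to 0.08. The interval for Psmb10 was −0.81 to 0.08 and that for Psmb9 was −0.81 to 0.13, so a larger fall in females of that size is within the error.

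Between the sexes, the vehicle groups stood apart in 5 members without a call. After vehicle, by each gene's brightest probe, every female array was above every male array for Tap2, Tapbp, Psmb8, Psmb9 and Psmb10. Of all genes, 8.28% were higher in females without overlap. The dimmest H2-K1 probe was also higher in every female array, by 0.24 ± 0.11 (limma adjusted p over all probes = 0.396). The dim second H2-D1 probe, kept only through male vehicle, was lower in every female array. Sex and array position cannot be told apart in these vehicle groups. By limma none of the 10 was called, beside 0.657% of all genes called higher in females and 1.31% called lower, and 4 had an unadjusted p under 0.05, as did 13.7% of all genes. The differences of those 4 were 0.54 (Tap2), 0.70 (Psmb8), 0.50 (Psmb9) and 0.55 (Psmb10), with adjusted p of 0.0902, 0.0779, 0.151 and 0.0878. With array weights, Tap2, Psmb8 and Psmb10 passed (adjusted p = 0.0393, 0.035 and 0.0354).

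After dexamethasone, Psmb8 was higher in females by 0.71 ± 0.17 (adjusted p = 0.0396), the single member called, beside 3.27% of all genes called higher and 2.53% called lower. Leaving out any of 6 arrays ended this call (male vehicle 2, male dexamethasone 1 or 3, and each female dexamethasone array; adjusted p = 0.0604 to 0.116), as did slide as a block (0.221). The dimmer Psmb8 probe gave 0.66 ± 0.20 and was not called (limma adjusted p over all probes = 0.0945). By each gene's brightest probe, Tap2 and Psmb8 did not overlap between the sexes, against 11.7% of all genes. The second brightest and dimmest H2-K1 probes were also higher in every female array. The differences were 0.29 ± 0.15 and 0.37 ± 0.11 (limma adjusted p over all probes = 0.307 and 0.0851). The pan-leukocyte sums given above were also higher in females under both treatments (0 of the 10 markers were called higher under vehicle and 4 under dexamethasone), and their part in these differences was not tested. The order of the group means was the same for Psmb8, Psmb9, Psmb10 and Tap2 at its ends, with female vehicle highest and male dexamethasone lowest. For Psmb8 and Tap2 the middle groups, male vehicle and female dexamethasone, overlapped.

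Within slides, the members that fell in both sexes were lower in each comparison. Slides 1 and 3 held male arrays of both treatments and slides 1 and 2 female arrays. Psmb9 differed by −1.32 and −1.16 in males and by −1.47 and −1.52 in females, and Tap1 by −1.77 and −1.15 in males and by −1.41 and −1.24 in females. Psmb8 differed by −0.63 and −0.93 in males and by −0.71 and −0.95 in females, and Psmb10 by −0.37 and −0.65 in males and by −0.86 and −0.87 in females. Each within-slide value rests on 2 or 3 arrays and has no test.

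Across the 12 arrays the members did not move as a single block. Over 45 pairs of members, Pearson's r ran from −0.56 (H2-K1 and Tap1) to 0.94 (Psmb9 and Psmb10), with a median of 0.36. The arrays share sex and treatment groups, so these values describe the arrays and carry no p. Among the genes whose levels were most like the mean standardized level of the 10 members were Nsg2, Panx1, Gstt2 and AW112010 (r of 0.93 to 0.94 over 12 arrays). The least like were Rars2, Iars, Trmt12, Nap1l1 and Polr2b (r of −0.92 to −0.89). Of the first named, Panx1 alone was called in a sex, falling by 0.75 in males (adjusted p = 0.0301); Trmt12 rose in both sexes, by 0.51 and 0.52 (adjusted p = 0.0366 and 0.0493).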

How the data were processed

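Gene expression was measured on 12 one-colour Agilent arrays, 1 per mouse, quantified with Agilent Feature Extraction 9.5 per the submitters' processing notes. The value used was the processed signal, a linear intensity that the scanner software had background-subtracted, per the file headers; the deposited series intensities equalled it at all 45018 spots. Log2 signals, computed here from the deposited intensities, were scaled by subtracting each array's 75th percentile. Outlier spots were left out, which dropped 57 probes, and spots of a probe were averaged. A probe had to be well above background on each array of some group (28840 probes did), and the brightest probe stood for a gene. All 17 member probes were kept, by gene name in the files.

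limma 3.58.1 in R 4.3.3 fitted 4 group means to all 12 arrays (8 residual degrees of freedom), with Benjamini-Hochberg adjustment over 19339 genes and a threshold of 0.05; scripts were tested on simulated data. The design text calls the animals biological replicates. The number of arrays limits the precision. Named from other lists were up to 3 genes per list with the largest mean effect among those called in both sexes, plus, whatever their values, Irf1, the H2-Q and H2-T genes, Psmb5, Psmb6 and Psmb7. Psme3, Psme2b and the class II neighbours were added outside this rule, after their values were seen. Some genes that these rules name are not reported here. Members and lists were chosen with earlier results of these data known. Coordinates of probes are mm7, from the files; promoters are RefSeq's, on GRCm38.p6, and were matched by symbol. Alternatives changed background correction, normalization, filters, probe choice, blocks, weights and arrays. Figures were drawn with matplotlib 3.10.9.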

Additional observations from a re-analysis of the deposited data

How the results depend on the processing

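Tap1, Psmb8, Psmb9 and Psmb10 stayed below 0 in both sexes, and Tap2 too, under every alternative and with each array left out. Psmb9 kept its calls in both sexes throughout, and Tap1 lost them only with normexp background correction (adjusted p = 0.0596 in males and 0.114 in females). Normexp called 1 member in males, 2 in females and 0 in females against males under dexamethasone; it called 935, 561, 0, 90 and 67 genes in males, in females, for the difference in response, and between the sexes under vehicle and dexamethasone, and it moved the median of all genes to 0.26 in males and 0.24 in females. Only the arrays of the groups compared called 3 members and 1180 genes in females, and 224 genes and 491 genes between the sexes under vehicle and dexamethasone. Array weights called 3 members between the sexes under vehicle, with 742 genes, and 4036 genes in females, 2348 between the sexes under dexamethasone and 3 for the difference in response. Psmb8 between the sexes under dexamethasone, the 1 member called there, was lost (0 called) also with probes of a gene averaged, slide as a block, the replicate block and only the arrays compared. Slide as a block called 244 genes there and no filter on dim probes 4233. For the difference in response, no filter called 2278 genes, no background subtraction 2, and a filter on all 12 arrays or probes of a gene averaged 0. The cause of these changes was not tested.

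Replicate numbers did not pair the arrays: over 18 pairs of arrays with the same number, correlations of deviations ran from −0.22 to 0.33, 2 of them over 0.1. The replicate block ended the calls of Psmb10 in males (adjusted p = 0.0568), Tap2 in females (0.0633) and Psmb8 between the sexes under dexamethasone (0.063), and called 244 genes between the sexes under vehicle and 703 under dexamethasone.

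Leaving out 1 array at a time called 2 to 4 members and 2342 to 5026 genes in males, 3 to 5 members and 1504 to 2568 genes in females, 1 to 32 genes for the difference in response, 158 to 436 genes between the sexes under vehicle, and 0 to 1 members and 455 to 1281 genes between them under dexamethasone.

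Only uncalled values changed sign. Under normexp the male changes of B2m, H2-K1 and H2-D1 were −0.083, −0.085 and −0.17, and the female changes of H2-K1 and H2-D1 −0.12 and −0.041. Under quantile normalization the male changes were −0.16, −0.16 and −0.20, the female change of H2-K1 −0.036, and B2m between the sexes −0.0076 under vehicle and 0.042 under dexamethasone. With probes of a gene averaged, H2-K1 and H2-D1 were at −0.14 and −0.080 in males, B2m and H2-K1 at 0.077 and −0.039 in females, and, between the sexes, B2m at −0.011 under vehicle and 0.044 under dexamethasone and H2-D1 at −0.46 and −0.13. The H2-D1 averages include its dim second probe, which lies elsewhere on chromosome 17 and may not read H2-D1. That probe passed the filter only through male vehicle, where its mean was highest, so its differences between the sexes carry that selection. It was well above background on 3 male vehicle, 2 male dexamethasone, 1 female vehicle and 2 female dexamethasone arrays. With slide as a block H2-K1 between the sexes under dexamethasone was −0.059. For the difference in response, Tapbp was 0.031 under normexp, 0.051 without background subtraction and 0.037 under quantile normalization, B2m and H2-K1 were 0.050 and 0.12 under quantile normalization and 0.055 and 0.10 with probes of a gene averaged, H2-D1 and Psmb8 −0.0071 and −0.097 with slide as a block, and Psmb8 −0.094 with array weights.

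With 1 array left out, the ranges that crossed 0 were: in males, B2m −0.0041 to 0.15 and H2-D1 −0.13 to 0.11; in females, B2m −0.12 to 0.10 and H2-D1 −0.029 to 0.22. For the difference in response they were B2m −0.21 to 0.013, H2-K1 −0.064 to 0.098, H2-D1 −0.052 to 0.23, Tap1 −0.17 to 0.28, Tapbp −0.16 to 0.15, Psmb8 −0.10 to 0.17 and Psme1 −0.24 to 0.0084. Between the sexes under vehicle they were B2m −0.056 to 0.071, H2-K1 −0.050 to 0.088, H2-D1 −0.0095 to 0.24, Tap1 −0.029 to 0.098 and Psme1 −0.17 to 0.0034, and under dexamethasone B2m −0.20 to 0.021, H2-K1 −0.022 to 0.14 and Tap1 −0.12 to 0.33. The arrays measure whole liver, and with 3 animals per group changes well below the intervals given could not be detected.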
